A study of Rattus norvegicus with 12 samples.

Results

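The solute carriers (Slc genes) with a measurable signal in the rat lens were examined by strain and by age. The array gave a single gene symbol for 359 Slc genes. A carrier was kept when its mean log2 signal over the 9 ICR arrays was 5 or more, with the probe set of the highest mean used for each gene, and 10 carriers (*Slc2a1*, *Slc2a3*, *Slc7a11*, *Slc20a1*, *Slc20a2*, *Slc12a2*, *Slc26a4*, *Slc13a3*, *Slc4a5* and *Slc25a35*) were left out by rule. Of the 42 carriers at or above that signal, 5 were among those left out, and 37 remained. These carriers were chosen by their mean signal in ICR lenses, so their levels, and the differences in level between strains, are given as descriptions without a test, while the changes with age are not part of the choice and were tested.

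RNA was taken from lenses of male ICR rats (ICR/Ihr, the Ihara Cataract Rat), which carry hereditary cataract, at 4 weeks of age without cataracts and at 8 and 10 weeks with cortical opacity, 3 arrays at each age, and from lenses of male SD (Sprague Dawley) rats without cataracts, 1 array at each of the same ages. In ICR lenses opacity and age cannot be told apart, because each age has 1 state of opacity. The ground sample was the whole lens, in which epithelial and fibre cells are mixed, and a decrease in a signal may be fewer cells of a type or less RNA per cell, which cannot be told apart in such samples. Whether the 3 samples at each age are separate animals is not stated, and p-values therefore cover the spread among these arrays alone, which may be of technical origin.

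The lens has no blood supply. Its cells take up amino acids, sugars, vitamins and ions from the aqueous humour, mainly through the epithelium and the outer fibre cells, and depend on membrane carriers for building crystallins and glutathione, for cell volume and for calcium and sodium balance. Mitochondria are found in the epithelium and in the young fibre cells and are lost from mature fibres. Solute carriers are named by family, so that Slc7 and Slc38 members carry amino acids, Slc25 members cross the inner mitochondrial membrane, Slc30 and Slc39 members carry zinc, and Slc35 members serve the secretory pathway.

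Per array, 3115 to 3934 genes reached a signal of 5 in ICR lenses and 3023 to 3339 in SD lenses. Over the 4546 genes that reached 5 in at least 1 ICR array, pairs of ICR arrays from 1 age gave correlations between 0.848 and 0.974. Genes are not independent of each other. The first principal component of the ICR arrays held 60.8% of the variance. At every age ICR replicate 1 was above replicates 2 and 3 in 44.4% of the genes tested and below both in 8.18%. Results that rest on replicate 1 are given with and without it. Genes of lens fibres (9 of 9 measured) and of lens epithelium (10 of 11 measured) reached a signal of 5 in at least 1 ICR array, while 0 of 8 measured genes of retina and 0 of 7 measured genes of blood and vessel did.

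Amino acid carriers were the largest group, with 11 of the 64 on the array. They were *Slc7a5*, *Slc7a8*, *Slc7a2*, *Slc38a2*, *Slc38a3*, *Slc3a2*, *Slc6a6*, *Slc6a9*, *Slc6a13*, *Slc1a4* and *Slc66a2*. Roles were assigned by family number, so a member of the group such as *Slc66a2* may not itself carry amino acids. The other carriers were 7 mitochondrial carriers of 44, 6 metal and heme carriers of 31, 4 carriers of the secretory pathway of 39, 3 sugar, acid and vitamin carriers of 61, 3 ion exchangers of 52, and 3 carriers of peptides and organic compounds of 65. Signals of different probe sets were not set against each other, since probes differ in response. All 37 carriers reached 5 in at least 1 ICR array and were therefore tested. Of these, 28 were at 5 or more in all 9 ICR arrays, and 9 were under 5 in at least 1. Just inside the limit were *Slc6a13* (mean 5.04), *Slc46a3* (5.11) and *Slc35f5* (5.15). Just outside it were *Slc25a20* (4.98), *Slc41a2* (4.96) and *Slc30a9* (4.96).

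**Figure D1:**
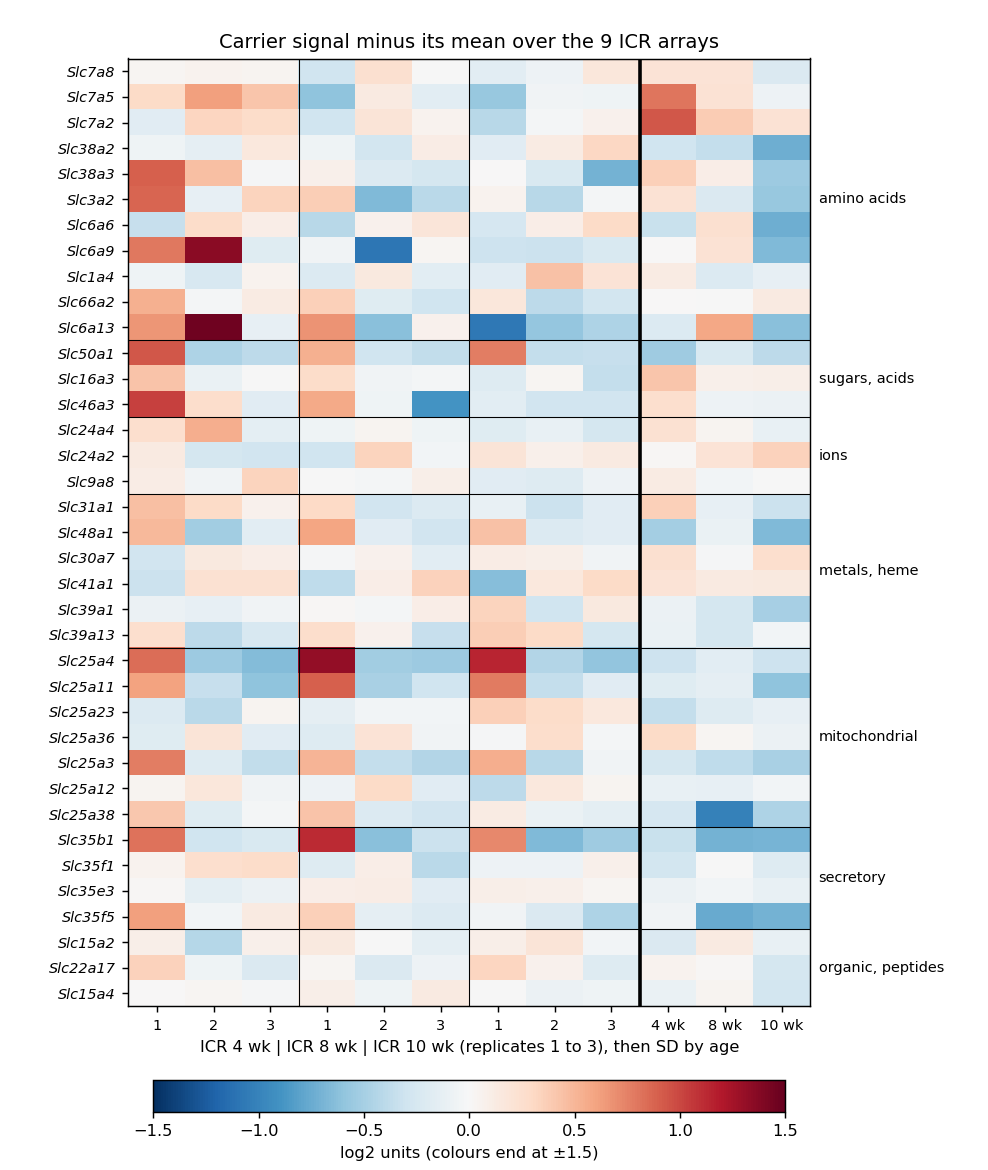
Log2 signal of each of the 37 carriers (rows, by role) in each of the 12 arrays (columns), less the carrier's mean over the 9 ICR arrays. ICR replicates 1 to 3 at 4, 8 and 10 weeks stand left of the heavy line and the 3 SD arrays right of it, and *Slc25a4*, *Slc25a11*, *Slc25a3* and *Slc35b1* are red in each ICR replicate 1 array and in none of the other arrays.

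To examine which carriers changed while cortical opacity formed, the 3 ages of ICR were compared with limma. *Slc7a5* encodes LAT1, the exchanger of large neutral amino acids such as leucine and phenylalanine, and *Slc3a2* encodes CD98 heavy chain, the glycoprotein that LAT1 and LAT2 need to reach the plasma membrane. *Slc38a3* encodes SNAT3, a sodium-coupled carrier of glutamine and histidine. When the replicate number entered the model as a block, *Slc7a5*, *Slc38a3* and *Slc35f5* were lower at 10 weeks, and *Slc7a5*, *Slc38a3* and *Slc3a2* were lower with cortical opacity. Without the block, 0 of the 37 carriers passed in any of these comparisons.

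*Slc7a5* had log2 signals of 8.62, 8.95 and 8.75 in ICR lenses at 4 weeks, 7.73, 8.47 and 8.18 at 8 weeks, and 7.77, 8.29 and 8.28 at 10 weeks. Its SD signals were 9.14, 8.56 and 8.27 at 4, 8 and 10 weeks. All 6 ICR arrays with opacity were below all 3 without, which held for 1 carrier, *Slc7a5*, beside 5.46% of all genes tested, and the reverse order held for 0 carriers, beside 1.06%. The SD signal was also lower at each later age. At 10 weeks ICR lenses averaged 8.11 ± 0.30 (standard deviation, n = 3), against 8.78 ± 0.17 (standard deviation, n = 3) at 4 weeks. The change was −0.66 on the log2 scale (standard error 0.12, adjusted p = 0.0117 in limma with the block, and standard error 0.23, adjusted p = 0.317 without it). At 8 against 4 weeks the difference in *Slc7a5* was −0.65 (standard error 0.12, adjusted p = 0.0623 with the block), and at 10 against 8 weeks it was −0.01 (95% interval −0.29 to 0.26 with the block). With the block, the call at 10 against 4 weeks was kept without 6 of the 9 ICR arrays in turn and lost without 4-week replicate 1, 10-week replicate 1 or 10-week replicate 2 (highest adjusted p = 0.0742). With against without cortical opacity, *Slc7a5* changed by −0.66 (standard error 0.11, adjusted p = 0.00871 with the block and 0.250 without it), a call kept without 8 of the 9 arrays in turn and lost without 4-week replicate 1 (adjusted p = 0.102).

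The promoter of *Slc7a5* holds an E-box, the letters CACGTG to which basic helix-loop-helix factors such as MYC and USF can bind, and it is shown because *Slc7a5* is the carrier whose ICR arrays separated by opacity. It lies 179 bases before the annotated start, on chr19:66872575-66872602 of RefSeq build GRCr8, minus strand, with the motif in capitals. A second motif searched was TGATGNAA, the core to which ATF4 and CEBP factors bind in genes that respond to amino acid shortage, and both strands were read.
*Slc7a5* E-box: atcatacgctcCACGTGcttcaacagac
*Slc1a4* E-box: tccaagttcctCACGTGctgctgcttag
*Slc1a4* TGATGNAA, reverse strand: cgcctccagcgTTGCATCAtccagccagca
The windows of *Slc1a4*, the alanine, serine and cysteine carrier ASCT1, lie on the minus strand at chr14:98761566-98761593 and chr14:98761779-98761808. Promoters of 250 bases before to 50 after the start were found for 29 of the 37 carriers. *Slc38a3* was among those without one and was not searched. The E-box occurred in 3 of the 29 (*Slc7a5*, *Slc1a4* and *Slc24a4*), against 6.65% of the 27457 promoters in the table, and TGATGNAA in 1 of the 29, against 3.82%. The 2 motifs do not overlap in these windows. Both motifs were picked with the values of the carriers known, and a match is a description of the letters.

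*Slc3a2* stood at 7.96, 6.95 and 7.41 in ICR lenses at 4 weeks, 7.44, 6.42 and 6.67 at 8 weeks, and 7.14, 6.66 and 7.05 at 10 weeks, with replicate 1 the highest at each age. In SD lenses it stood at 7.30, 6.86 and 6.51. The ICR ages overlapped, and within each replicate number the 4-week array was above both later ones. With against without cortical opacity, *Slc3a2* changed by −0.54 (standard error 0.12, adjusted p = 0.0336 with the block and 0.630 without it). That call was kept without 3 of the 9 arrays in turn (8-week replicate 1 and 10-week replicates 1 and 3) and lost without each other one, with adjusted p up to 0.197, and it was lost after cyclic loess (adjusted p = 0.0602). At 10 against 4 weeks *Slc3a2* was at −0.49 (standard error 0.14, adjusted p = 0.0649 with the block). *Slc7a8*, which encodes LAT2, the other light chain partner of CD98 among the carriers kept, was at −0.06 (95% interval −0.36 to 0.24 with the block) at 10 against 4 weeks, and its ICR signals ran between 8.59 and 9.13.

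*Slc38a3* had signals of 8.00, 7.55 and 7.08 in ICR lenses at 4 weeks, 7.18, 6.90 and 6.84 at 8 weeks, and 7.12, 6.88 and 6.40 at 10 weeks. The SD signals were 7.46, 7.20 and 6.57. The ICR groups overlapped at their edges, and each replicate number was lower at each later age. At 10 against 4 weeks *Slc38a3* changed by −0.75 (standard error 0.13, adjusted p = 0.00952 with the block, and standard error 0.27, adjusted p = 0.339 without it), and with against without cortical opacity by −0.66 (standard error 0.11, adjusted p = 0.0113 with the block and 0.348 without it). With the block, the call at 10 against 4 weeks was kept without 7 of the 9 arrays in turn and lost without 4-week replicate 1 or 10-week replicate 1 (highest adjusted p = 0.0732), and the call by opacity was lost without 4-week replicate 1 or 4-week replicate 2 (highest adjusted p = 0.124).

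*Slc35f5*, a member of a family that holds nucleotide sugar carriers, was near the lower limit of signal. Its ICR signals were 5.76, 5.11 and 5.29 at 4 weeks, 5.51, 5.02 and 4.94 at 8 weeks, and 5.09, 4.93 and 4.69 at 10 weeks, and its SD signals were 5.10, 4.39 and 4.44. The 10-week ICR arrays did not overlap with the 4-week arrays. It changed by −0.49 (standard error 0.12, adjusted p = 0.0395 with the block and 0.493 without it) at 10 against 4 weeks. This call was lost after quantile normalization (adjusted p = 0.0652) or cyclic loess (0.0559), and it was kept without 2 of the 9 arrays in turn (4-week replicate 2 and 8-week replicate 1) and lost without each other one, with adjusted p up to 0.167.

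**Figure D2:**
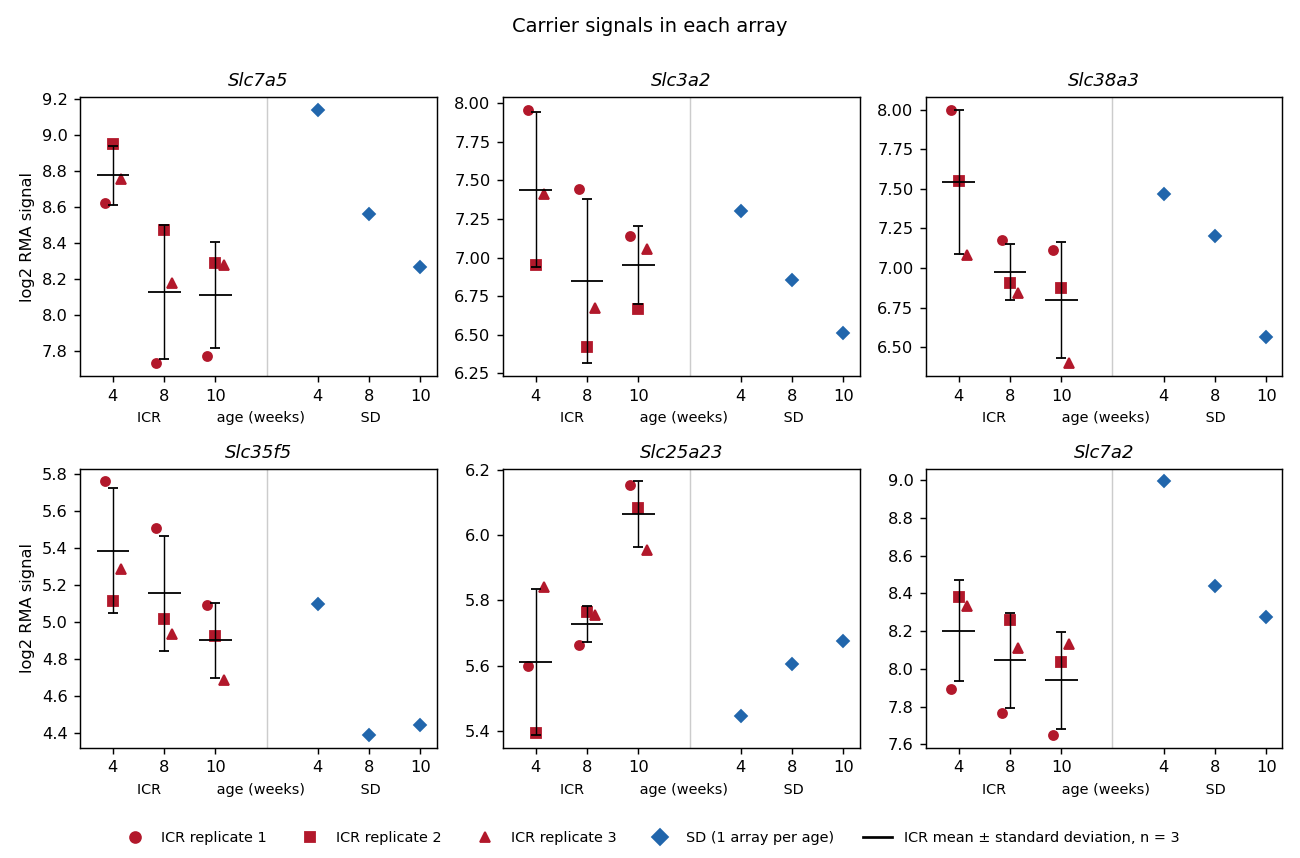
Log2 RMA signal (vertical axes, which do not start at 0) of 6 carriers in each array by age in weeks, ICR left and SD right in each panel. Symbols show the ICR replicate number, bars the ICR mean ± standard deviation (n = 3), and in *Slc7a5* the 6 ICR arrays at 8 and 10 weeks lie at 8.47 or lower and the 3 at 4 weeks at 8.62 or higher.

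The 3 carriers lower at 10 against 4 weeks with the block stood beside 7.33% of all 4546 genes tested that were lower and 1.58% that were higher, and 0 carriers were higher. Without the block, 0.154% of all genes were lower and 0% higher. At an unadjusted p under 0.05 in that limma fit, 1 carrier (*Slc25a23*) was positive and 4 (*Slc6a13*, *Slc7a5*, *Slc38a3* and *Slc31a1*) were negative. With against without opacity, 0 carriers were higher and 3 were lower with the block, beside 1.45% and 5.43% of all genes, and without the block 0% and 0.0660% of all genes were called. At an unadjusted p under 0.05, 1 carrier was positive there and 5 were negative without the block. At 8 against 4 weeks 0 carriers passed either fit (in limma, 0 were positive and 3 negative with an unadjusted p under 0.05 in the fit lacking the block, and 0 and 8 in the other), beside 0.0220% of all genes higher and 0.154% lower with the block. At 10 against 8 weeks 0 carriers passed (1 positive and 0 negative at an unadjusted p under 0.05 in both fits), beside 0% higher and 0.220% lower. The comparisons at 8 and at 10 weeks and the one by opacity share the 4-week arrays. With the 3 replicate 1 arrays left out, 0 carriers passed with the block in any of these comparisons, with *Slc7a5* at −0.57 (adjusted p = 0.105) and *Slc38a3* at −0.68 (adjusted p = 0.105) at 10 against 4 weeks.

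**Figure D3:**
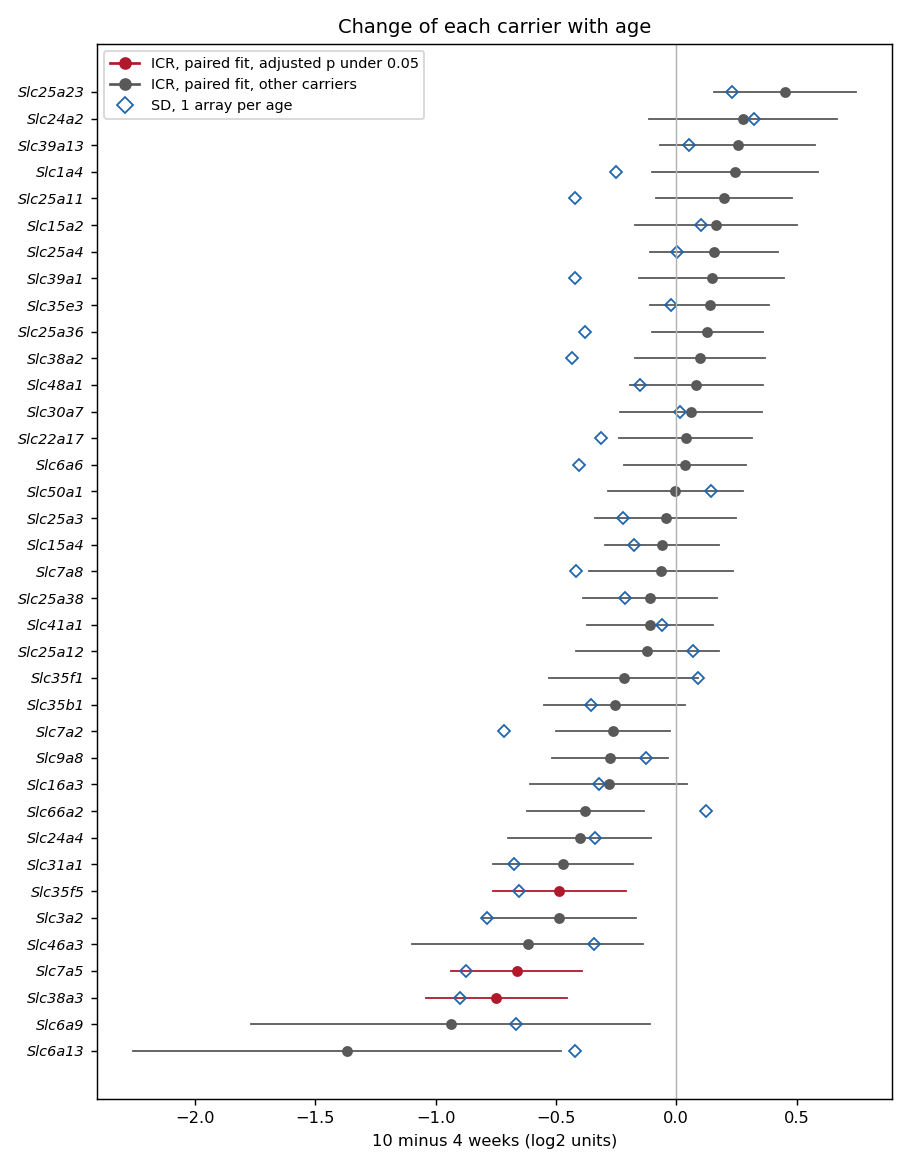
Difference between 10 and 4 weeks in log2 units for each of the 37 carriers, ordered by the ICR value. Circles and lines give the ICR change with its 95% interval from limma with the replicate block, red where the adjusted p was under 0.05 (*Slc7a5*, *Slc38a3* and *Slc35f5*), and open diamonds give the difference of the single SD arrays, which lies left of 0 for each of those 3.

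Over the 37 carriers the median change at 10 against 4 weeks was −0.06, beside −0.10 for all genes tested. The carriers' median was 0.03 with quantile normalization and 0.01 with cyclic loess, so the sign of the whole group depends on the scaling. By role, the median was −0.38 for the 11 amino acid carriers (8 negative), −0.28 for the 3 sugar, acid and vitamin carriers, −0.28 for the 3 ion exchangers, −0.24 for the 4 secretory pathway carriers, 0.04 for the 3 peptide and organic compound carriers, 0.07 for the 6 metal and heme carriers and 0.13 for the 7 mitochondrial carriers. These medians are descriptions, and that of the amino acid group is the value of *Slc66a2*, which was placed there by family number alone. The 10-week ICR arrays were all above the 4-week arrays in 2 carriers (*Slc25a23* and *Slc35e3*) and all below them in 6 (*Slc7a5*, *Slc31a1*, *Slc9a8*, *Slc6a9*, *Slc35f5* and *Slc6a13*), beside 4.20% and 13.0% of all genes. At 8 against 4 weeks 1 carrier (*Slc39a1*) was above and 1 (*Slc7a5*) below without overlap, beside 1.96% and 8.47%. At 10 against 8 weeks 1 (*Slc25a23*) was above and 2 (*Slc24a4* and *Slc9a8*) were below, beside 2.73% and 3.85%.

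The summed signal of genes that mark the lens epithelium was lower at the later ages in ICR lenses, while the median log2 signal of the list overlapped between ages. The summed linear signal of the 11 measured epithelial genes was 1153 to 1286 in ICR lenses at 4 weeks, 1058 to 1131 at 8 weeks and 996 to 1061 at 10 weeks, and in SD lenses 1308, 1306 and 1004. The 10-week and 4-week ICR sums did not overlap. A linear sum is weighted to genes of high signal. *Slc2a1* is such a gene of this list, with log2 signals of 8.68, 8.61 and 8.38 in ICR lenses at 4 weeks and 8.12, 8.11 and 7.75 at 10 weeks. The sum was not computed without *Slc2a1*. The median log2 signal of the list was 6.16, 6.15 and 6.26 in ICR lenses at 4 weeks, 6.25, 6.44 and 6.14 at 8 weeks and 6.38, 6.21 and 6.06 at 10 weeks, and 6.61, 6.42 and 5.96 in SD lenses. With the block, 0 of the 10 epithelial genes tested were higher and 2 were lower at 10 weeks, *Ptn* and the left-out glucose carrier *Slc2a1*, and without it 0 passed (4 had an unadjusted p under 0.05). *Pax6*, the eye transcription factor of the epithelium, was at −0.41 (adjusted p = 0.0589 with the block). The summed signal of the 9 fibre genes ranged over 25620 to 28068, 25141 to 29663 and 24843 to 28649 at 4, 8 and 10 weeks and overlapped, with 27391, 25960 and 24118 in SD lenses. Of the fibre genes, 1 was lower with the block, *Dnase2b*, the gene of the DNase that degrades nuclear DNA as fibres mature (−1.50, adjusted p = 0.000156), and 0 passed without it (1 had an unadjusted p under 0.05). Beside these epithelial and fibre counts, 1.58% of all genes tested were higher and 7.33% lower at 10 against 4 weeks with the block. The part of the epithelial and fibre genes in the changes of the carriers was not tested.

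*Slc25a23* encodes a calcium-regulated carrier that exchanges ATP-Mg for phosphate across the inner mitochondrial membrane, and it had the highest positive value among the carriers at 10 against 4 weeks. Its ICR signals were 5.60, 5.39 and 5.84 at 4 weeks, 5.66, 5.76 and 5.76 at 8 weeks, and 6.15, 6.08 and 5.95 at 10 weeks, and its SD signals were 5.45, 5.61 and 5.68. The 10-week ICR arrays were above the 6 younger ones. The difference at 10 against 4 weeks was 0.45 (standard error 0.13, adjusted p = 0.0649 with the block, and standard error 0.14, adjusted p = 0.270 without it). With the block it passed the threshold under quantile normalization (0.53, adjusted p = 0.0414) and cyclic loess (0.54, adjusted p = 0.0434), and without 4-week replicate 3 (0.59, adjusted p = 0.0352).

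*Slc6a13* and *Slc6a9*, members of a family of sodium- and chloride-coupled carriers, gave the most negative values at 10 against 4 weeks. *Slc6a13* (GAT2, a carrier of GABA, betaine and taurine) had ICR signals of 5.70, 6.50 and 4.92 at 4 weeks, 5.71, 4.41 and 5.11 at 8 weeks, and 3.97, 4.46 and 4.58 at 10 weeks, and SD signals of 4.84, 5.62 and 4.42. *Slc6a9* (GlyT1, a glycine carrier) had 6.44, 6.99 and 5.46, then 5.59, 4.56 and 5.67, and then 5.33, 5.32 and 5.41, with SD signals of 5.65, 5.86 and 4.98. In both, 4-week replicate 2 was the highest ICR array and 8-week replicate 2 was low. At 10 against 4 weeks *Slc6a13* was at −1.37 (standard error 0.40, adjusted p = 0.0631 with the block and 0.288 without it) and *Slc6a9* at −0.94 (standard error 0.37, adjusted p = 0.141 with the block and 0.458 without it), so neither passed. Without 4-week replicate 3 both did with the block, at −1.83 (adjusted p = 0.0208) for *Slc6a13* and −1.47 (adjusted p = 0.0179) for *Slc6a9*, and *Slc6a13* did without 8-week replicate 2 (adjusted p = 0.0208). Without 4-week replicate 2 they were at −0.84 and −0.40.

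*Enpp2* and *Fbn1*, listed here as markers of the ciliary body and the iris, which adjoin the lens, were also highest in 4-week replicate 2 and lowest among the 8-week arrays in replicate 2, and they were picked after their values were seen. *Enpp2*, which encodes autotaxin, had ICR signals of 6.01, 7.11 and 5.32 at 4 weeks, 6.29, 4.73 and 5.97 at 8 weeks and 3.86, 4.24 and 4.52 at 10 weeks, and SD signals of 5.91, 6.51 and 5.27. *Fbn1*, the fibrillin gene, had 6.26, 7.65 and 5.87, then 5.83, 4.78 and 6.29, and then 3.59, 4.32 and 5.22, with SD signals of 6.31, 6.58 and 4.68. Of the 18 genes of the list measured, 6 reached a signal of 5, and 12, among them the pigment genes *Tyr*, *Tyrp1*, *Dct*, *Pmel* and *Mlana*, did not. *Slc13a3* and *Mfap4*, 2 of those 6, reached it in 4-week ICR arrays only, so a count of lower genes in this list is favoured by the limit and is not given. *Enpp2* was at −1.94 and *Fbn1* at −2.22 at 10 against 4 weeks (adjusted p = 0.0358 and 0.0301 with the block, 0.176 for each without it). *Ptgds*, which encodes a prostaglandin D synthase, did not have this order, with 10.63, 8.41 and 9.67 at 4 weeks, 11.29, 10.02 and 9.91 at 8 weeks and 11.17, 9.90 and 9.92 at 10 weeks in ICR lenses, and 9.40, 9.55 and 9.35 in SD lenses. It was lowest in 4-week replicate 2, where *Enpp2* and *Fbn1* were highest. By opacity in limma with the block, *Ptgds* was higher (0.80, adjusted p = 0.0427) and the others did not pass, and without the block 0 of the 6 passed. The summed linear signal of the list was 1075 to 2036 at 4 weeks, 1241 to 2860 at 8 weeks and 1124 to 2446 at 10 weeks, with 999, 1158 and 861 in SD lenses, and most of it came from *Ptgds* except in 4-week replicate 2. Without *Ptgds*, a choice made after its level was seen, it was 265 to 735, 201 to 351 and 140 to 208, with 323, 411 and 209 in SD lenses. The part of such tissue in the signals of *Slc6a9* and *Slc6a13* was not tested.

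**Figure D4:**
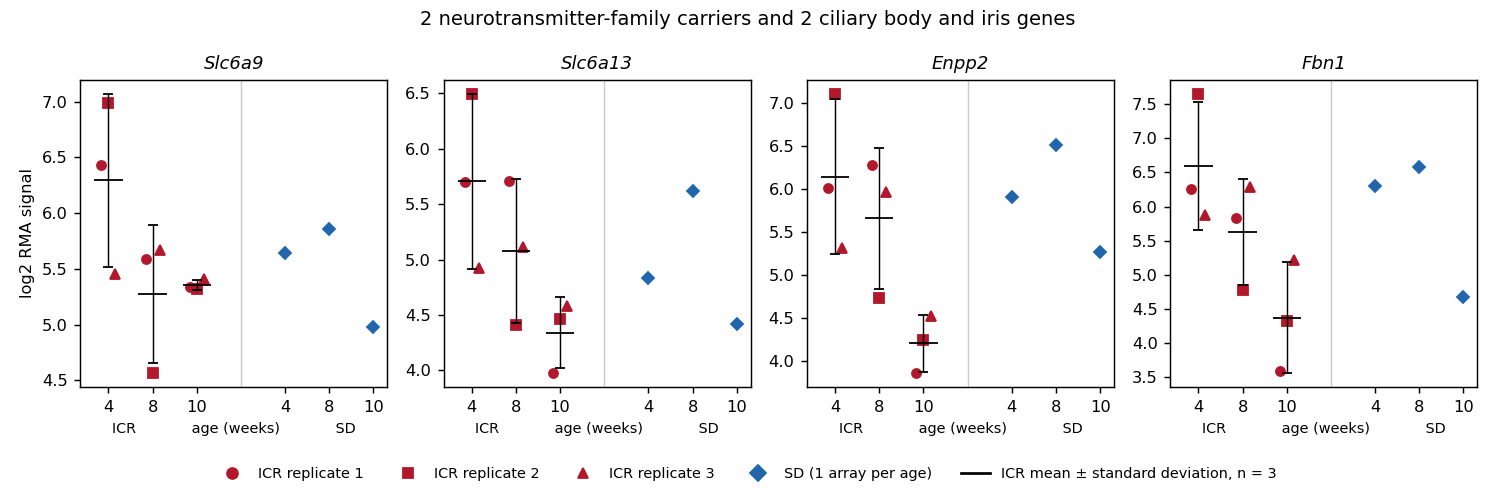
Log2 RMA signal (vertical axes, which do not start at 0) of *Slc6a9* and *Slc6a13* and of the ciliary body and iris genes *Enpp2* and *Fbn1* in each array by age in weeks, ICR left and SD right in each panel, with ICR means ± standard deviation (n = 3). In each of the 4 genes, 4-week replicate 2 is the highest ICR array and 8-week replicate 2 the lowest of its age.

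Immediate early genes, whose transcripts accumulate quickly once cells are disturbed, also had their highest level in 4-week ICR replicate 2. Their summed linear signal was 933, 3234 and 552 in the 4-week ICR arrays, 703 to 1306 at 8 weeks and 549 to 1271 at 10 weeks, against 2667, 826 and 986 in SD lenses at 4, 8 and 10 weeks. *Slc7a5* was also highest among ICR arrays in 4-week replicate 2. Without that array *Slc7a5* (−0.71, adjusted p = 0.0370) and *Slc38a3* (−0.75, adjusted p = 0.0404) were still lower at 10 against 4 weeks with the block. Of 20 immediate early genes tested, 0 passed at 10 against 4 weeks without the block (1 had an unadjusted p under 0.05). In limma with the block 1, *Ppp1r15a*, was lower (−1.17, adjusted p = 0.00849), beside 7.33% of all genes tested. The part of the immediate early genes in the signals of the carriers was not tested.

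The remaining members of the amino acid group did not pass in either fit. *Slc7a2*, the carrier CAT2 of arginine and lysine, was at −0.26 (95% interval −0.50 to −0.03, adjusted p = 0.144 with the block) at 10 against 4 weeks. *Slc66a2* was at −0.38 (adjusted p = 0.0608 with the block). *Slc38a2* (SNAT2, a carrier of small neutral amino acids), *Slc6a6* (the taurine carrier, which serves osmotic balance) and *Slc1a4* had positive values of 0.10, 0.04 and 0.25, with adjusted p of 0.630, 0.862 and 0.340 with the block.

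Among the metal and ion carriers, *Slc31a1*, the copper importer CTR1, had ICR signals of 7.45, 7.28 and 7.06 at 4 weeks, 7.30, 6.71 and 6.79 at 8 weeks and 6.88, 6.67 and 6.82 at 10 weeks, and SD signals of 7.35, 6.88 and 6.68. It was at −0.47 (adjusted p = 0.0524 with the block and 0.401 without it) at 10 against 4 weeks, with no overlap between the ages. The potassium-dependent sodium-calcium exchangers *Slc24a4* and *Slc24a2* had values of opposite sign, −0.40 (95% interval −0.70 to −0.11, adjusted p = 0.0894) and 0.28 (95% interval −0.11 to 0.67, adjusted p = 0.341), both with the block. In SD lenses their differences were −0.34 and 0.32. The sodium-proton exchanger *Slc9a8* was at −0.28 (adjusted p = 0.138 with the block). The zinc carriers *Slc39a1*, *Slc39a13* and *Slc30a7* and the magnesium carrier *Slc41a1* were at 0.15, 0.26, 0.06 and −0.11, and the heme carrier *Slc48a1* at 0.08, none of which passed.

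Among the sugar, acid and vitamin carriers, *Slc16a3*, which encodes the lactate exporter MCT4, was at −0.28 (adjusted p = 0.254 with the block), and *Slc46a3*, a lysosomal carrier, at −0.62 (95% interval −1.10 to −0.14, adjusted p = 0.103). The sugar carrier *Slc50a1* (SWEET1) was at −0.0038 (95% interval −0.29 to 0.28). *Slc15a2*, the peptide carrier PEPT2, *Slc15a4*, a peptide and histidine carrier of lysosomes, and *Slc22a17*, the lipocalin receptor, were at 0.17, −0.06 and 0.04. None of these 6 passed. In the secretory pathway *Slc35b1*, which brings ATP into the endoplasmic reticulum, was at −0.26 (adjusted p = 0.249), *Slc35f1* at −0.22 (adjusted p = 0.341) and *Slc35e3* at 0.14 (adjusted p = 0.453), all with the block.

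Partner proteins and ion pumps of the carriers were followed as a list of 36 genes, of which 31 were measured and 17 tested. At 10 against 4 weeks 0 passed without the block (4 had an unadjusted p under 0.05). With it 0 were higher, beside 1.58% of all genes tested, and 2 were lower, beside 7.33%. These were *Oxsr1*, the kinase OSR1 that phosphorylates cation-chloride cotransporters (−0.99, standard error 0.15, adjusted p = 0.00492 with the block and 0.0845 without it), and *Fxyd6*, a regulator of the sodium pump (−1.39, standard error 0.19, adjusted p = 0.00309 with the block and 0.122 without it). *Fxyd6* was at 5.74, 4.92 and 4.91 in SD lenses at 4, 8 and 10 weeks. The calcium pump gene *Atp2a2* was at −0.44 (adjusted p = 0.0669 with the block) and *Wnk1*, the kinase upstream of OSR1, at −0.32 (adjusted p = 0.134 with the block). The median of the 17 was −0.11.

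The other 6 mitochondrial carriers did not pass at any age in either fit, and several differed more between replicate numbers than between ages. At 10 against 4 weeks *Slc25a11* was at 0.20, *Slc25a4* at 0.16, *Slc25a36* at 0.13, *Slc25a3* at −0.04, *Slc25a38* at −0.11 and *Slc25a12* at −0.12. *Slc25a4*, the adenine nucleotide translocator ANT1 of heart and muscle, had signals of 8.73, 9.21 and 9.04 in ICR replicate 1 at 4, 8 and 10 weeks, against 7.25 to 7.46 in ICR replicates 2 and 3. It had 7.58 to 7.74 in the SD lenses, closer to replicates 2 and 3 than to replicate 1. *Slc25a11*, the exchanger of oxoglutarate and malate, was higher by 1.14 in replicate 1, *Slc25a3*, the phosphate carrier, by 0.91 and *Slc25a38*, a glycine carrier needed for heme synthesis, by 0.48. *Slc25a12*, the aspartate-glutamate carrier, and *Slc25a36*, a pyrimidine nucleotide carrier, were at −0.22 and −0.20, so the family did not share 1 sign. Outside the mitochondria, *Slc35b1* was higher by 1.33, *Slc50a1* by 1.12, *Slc48a1* by 0.75 and *Slc3a2* by 0.65, and *Slc41a1*, *Slc6a6*, *Slc7a5* and *Slc7a2* were at −0.67, −0.50, −0.44 and −0.44.

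The 3 replicate 1 arrays did not overlap with the other 6 ICR arrays in 11 carriers. They were above in 8 (*Slc25a4*, *Slc35b1*, *Slc25a11*, *Slc48a1*, *Slc50a1*, *Slc25a3*, *Slc25a38* and *Slc66a2*) and below in 3 (*Slc7a2*, *Slc6a6* and *Slc41a1*), beside 35.0% and 4.53% of all genes tested. The median over the 37 carriers was 0.13, beside 0.22 over all genes. The summed signal of the partner list was 2789 to 2916 in replicate 1 and 1619 to 1717 in replicates 2 and 3, and 1612 to 1842 in SD lenses, and *Bsg*, the basigin that carries MCT4 to the membrane, had 7.37 to 7.47 in replicate 1 and 6.27 to 6.62 in replicates 2 and 3. The labels do not say what the replicate numbers stand for.

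**Figure D5:**
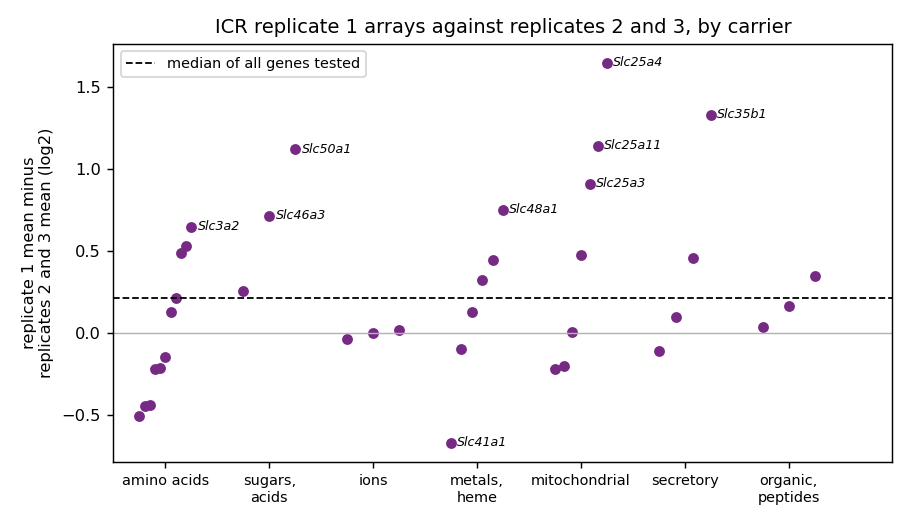
Mean log2 signal of the 3 ICR replicate 1 arrays minus that of the 6 arrays of replicates 2 and 3 (vertical axis) for each of the 37 carriers (points), by role. The dashed line is the median of all 4546 genes tested (0.22), and *Slc25a4* stands highest at 1.65.

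To see whether the carriers changed with age in both strains, the ICR changes were set beside those of the SD lenses, which have 1 array at each age. From 4 to 10 weeks, 10 carriers had a positive and 27 a negative difference in SD lenses, with a median of −0.31. The most negative were *Slc38a3* (−0.90), *Slc7a5* (−0.88), *Slc3a2* (−0.79), *Slc7a2* (−0.72) and *Slc31a1* (−0.68), and the most positive *Slc24a2* (0.32), *Slc25a23* (0.23), *Slc50a1* (0.14), *Slc66a2* (0.13) and *Slc15a2* (0.10). In 18 carriers both strains were negative and in 6 both were positive. In 9 the ICR value was positive and the SD value negative, and in 4 the reverse. The SD median and these counts of sign were not computed over all genes, so a shift of whole arrays is not allowed for. A test of the difference, with the spread taken from the ICR arrays, called 0 carriers at 10 against 4 weeks and 0 at 8 against 4 weeks in limma, in both fits. Carriers with an unadjusted p under 0.05 numbered 0 in each comparison for the fit lacking the block and 3 in each for the other. Of all genes, 0% were called in either direction without the block, and with it 0.0220% were higher and 0% lower in each comparison. With 1 SD array at each age, and with the spread between replicate numbers left in, the intervals without the block are wide. Those of the carriers named next were narrower with the block. For *Slc7a5* the ICR change less the SD change was 0.21 (95% interval −0.82 to 1.25), and for *Slc38a3* it was 0.15 (95% interval −1.07 to 1.37), for *Slc3a2* 0.30 (95% interval −1.21 to 1.80) and for *Slc35f5* 0.17 (95% interval −0.86 to 1.20), each at 10 against 4 weeks without the block.

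The levels by strain are a description, since the ICR level chose the carriers, which favours those higher in ICR lenses. The 3 ICR arrays lay all above the SD array at every age in 4 carriers (*Slc38a2*, *Slc35b1*, *Slc25a38* and *Slc35f5*) and all below it in 1 (*Slc7a2*), beside 6.20% and 2.68% of all genes tested. *Slc38a2* averaged 7.58, 7.52 and 7.68 in ICR lenses at 4, 8 and 10 weeks, against 7.29, 7.23 and 6.86 in SD lenses. *Slc7a2* averaged 8.20, 8.05 and 7.94 in ICR lenses, against 8.99, 8.44 and 8.28 in SD lenses. These are carriers of small neutral and of cationic amino acids. *Slc25a38* averaged 5.44, 5.35 and 5.33 in ICR lenses, against 5.13, 4.35 and 4.92 in SD lenses, and *Slc35f5* 5.39, 5.16 and 4.90, against 5.10, 4.39 and 4.44. Over the ages, the ICR mean less the SD mean was highest for *Slc35b1* (0.58), *Slc25a38* (0.58), *Slc35f5* (0.51), *Slc38a2* (0.46) and *Slc48a1* (0.43), and lowest for *Slc7a2* (−0.51), *Slc7a5* (−0.32), *Slc16a3* (−0.19), *Slc24a2* (−0.19) and *Slc41a1* (−0.16). *Slc35b1* and *Slc48a1* were also among the carriers higher in ICR replicate 1. With quantile normalization *Slc7a2* and *Slc16a3* were lower and *Slc25a38* and *Slc35f5* higher without overlap at every age, and with cyclic loess *Slc7a2* and *Slc7a5* were lower and the same pair higher, so *Slc38a2* and *Slc35b1* depend on the scaling.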

How the data were processed

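Lens RNA of 9 ICR and 3 SD samples was amplified, biotin-labelled and hybridized to GeneChip Rat Gene 2.0 ST arrays. Robust Multi-array Average (RMA) was run by the authors in R, and the deposited values are its log2 signals, 1 per probe set and array. The sources used here give no version for it. No detection value stands beside the signals, and the study's minimum signal of 5 served as the limit. The number of arrays limits the precision.

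The platform annotation named a single gene for 18511 of the 36685 probe sets and several genes for 575, and it did not list the other 17599. This gave 18166 genes, and where a gene had several probe sets (291 genes) the highest mean decided. All 37 carriers matched the RefSeq table by gene identifier. Genes at 5 or more in at least 1 of the 9 ICR arrays (4546) entered 1 limma fit of the 3 ages (version 3.58.1, R 4.3.3, lmFit and eBayes), 2-sided, and Benjamini-Hochberg adjustment over all of them at 0.05. The fit was tested on simulated data. Figures were drawn with matplotlib in Python.

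The replicate numbers in the sample titles were checked for pairing. Deviations of arrays with the same number from their group means correlated at 0.547 to 0.848 in all 9 pairs of arrays. A fit with the number as a block is therefore given beside the one without it. Deviations within an age cancel out, so a shift shared by the replicate 1 arrays (0.837 to 0.848) by itself moves replicates 2 and 3 together. The correlations of replicates 2 and 3 (0.547 to 0.687) are therefore not separate signs of pairing. The labels do not state a shared animal, day or batch, so the pairing comes from the data.

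The carriers, gene lists and tests were chosen with earlier results of these data known. Named were carriers past the threshold, the largest changes each way by comparison and strain, the 3 highest means per role, those next to the limit of 5, and the 4 genes, or fewer, of lowest p in each gene list. Other carriers are given by value. Alternatives were filters, normalization, variance model, probe sets without a gene, membership limits of 4.5 and 6, and leaving out arrays.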

Additional observations from a re-analysis of the deposited data

Results flagged for a closer look

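These 3 carriers drew attention because the ICR arrays of 2 ages did not overlap while the single SD arrays differed in the opposite direction. The ICR change less the SD change was 0.16 for *Slc35e3* at 10 against 4 weeks, 0.30 for *Slc39a1* at 8 against 4 weeks and −0.20 for *Slc9a8* at 10 against 8 weeks. The SD differences themselves, each between 2 single arrays, were −0.02, −0.19 and 0.03. Those of *Slc35e3* and *Slc9a8* were thus close to no change. In limma without the block, the ICR change less the SD change had adjusted p near 1 for *Slc35e3* (95% interval −0.40 to 0.73) and *Slc39a1* (95% interval −0.46 to 1.07). With the block the intervals were −0.33 to 0.66 and −0.30 to 0.91, and neither passed. For *Slc9a8* it was not tested. Groups of 3 arrays are too small for a test of outlying samples.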

How the results depend on the processing

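Without the replicate block 0 carriers were called at any comparison of ages or by opacity under all alternatives tried, and the block changed this to 3 at 10 against 4 weeks and 3 by opacity. With the block, the 3 carriers lower at 10 against 4 weeks became 0 with no filter on signal, 8 (1 higher, 7 lower) when a gene needed 5 or more in 3 arrays, 7 (1 and 6) when eBayes used a trend and was robust, 1 with unnamed probe sets kept, 0 without the 3 replicate 1 arrays, and 0 to 6 when single arrays were left out. The 3 lower by opacity became 0 with no filter, 5 with the trend, 0 with unnamed probe sets kept, 5 (1 and 4) at a membership limit of 4.5, 0 without the 3 replicate 1 arrays, and 0 to 4 without single arrays. The 0 at 8 against 4 weeks became 1 with the stricter filter, 3 with the trend, and 0 to 1 without single arrays. At 10 against 4 weeks the calls were lost without 4-week replicate 1 or 10-week replicate 1 (0 each), were 1 without 10-week replicate 2 and 6 without 4-week replicate 3. By opacity they were 0 without 4-week replicate 1 and 1 without 4-week replicate 2. *Slc39a13* by opacity reversed to −0.0020 without 4-week replicate 2. For single carriers, 459 of 512 alternatives kept direction and side of the threshold, 41 lost the call, 11 gained it and 1 reversed. The 512 pool both fits, for carriers called or of largest change at 10 against 4 weeks or by opacity. Only calls made with the block could be lost, and most of the 459 are carriers that stayed uncalled. The 459 are therefore no measure of how stable the calls are. All genes called at 10 against 4 weeks with the block were 72 higher and 333 lower, 150 and 216 with quantile normalization, and 134 and 209 with cyclic loess. The carriers separated by strain at every age, 5 here, were 4 with either normalization and 5 to 6 without single arrays, which was added after seeing the data. Leaving out an ICR array can only loosen this criterion, so that count could not fall below 5 and is no check of it. The test of ICR against SD changes called 0 carriers under every alternative, and with 1 SD array at each age it could not have resolved small differences.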
